A study of Mus musculus with 8 samples.

Results

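The miR-183, miR-96 and miR-182 cluster is a group of microRNAs cut from 1 primary transcript, and its 5p arms, mmu-miR-183-5p, mmu-miR-96-5p and mmu-miR-182-5p, were followed here in the obstructed mouse kidney. These 3 miRNAs, out of 1881 mouse miRNAs on the array, were taken by name, and they were selected on the measured difference between obstructed and sham kidneys. That difference is therefore given for them as a description, without a test. Whole kidney tissue was taken on day 7 after surgery from C57BL/6 males that were 8 weeks old. The operation was either a unilateral ureteral obstruction (UUO, the tying of 1 ureter, which leads to tubular injury, inflammation and fibrosis of that kidney) or a sham. There were 4 Sham arrays, numbered 1, 2, 3 and 8, and 4 UUO arrays, numbered 1 to 4. The labels do not say in words that each sample was a different mouse, so the spread between arrays may be technical in part.

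A miRNA is a short RNA that, loaded into an Argonaute protein, pairs through its seed (bases 2 to 8) with messenger RNAs and lowers their output. The miR-183 cluster is best known from sensory organs, where it is abundant in hair cells and photoreceptors, and seed mutations of miR-96 cause hearing loss. Outside the nervous system, miR-182 is induced by interleukin-2 in helper T cells, and members of the cluster have been reported to repress the transcription factor Foxo1. The cluster has also been studied as a target of the repressor ZEB1, which acts on epithelial genes.

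The mature sequences are shown because the 3 miRNAs differ by few seed bases, which bears on their targets. Their likeness outside the seed bears on how far a probe can tell them apart. The sequences are RefSeq entries on GRCm38.p6, written 5′ to 3′ with the seed in capitals.
mmu-miR-183-5p: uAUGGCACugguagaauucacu
mmu-miR-96-5p: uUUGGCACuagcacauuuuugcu
mmu-miR-182-5p: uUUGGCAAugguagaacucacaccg

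All of them lie on the minus strand of chromosome 6, inside the long non-coding RNA gene Mirc35hg, with Nrf1 and Ube2h as the nearest protein-coding neighbours. The mature miR-183-5p lies at chr6:30169711-30169732, miR-96-5p at chr6:30169506-30169528 and miR-182-5p at chr6:30165962-30165986. The hairpins of miR-183 and miR-96 are 116 bases apart and those of miR-96 and miR-182 are 3453 bases apart, over a span of 3820 bases. In the seed, miR-96 and miR-183 had 6 of 7 bases in common, miR-96 and miR-182 also 6 of 7, and miR-183 and miR-182 5 of 7. No pair had the whole seed in common. Bases 2 to 7 (UUGGCA) were identical in miR-96 and miR-182, and bases 3 to 8 (UGGCAC) in miR-96 and miR-183. Over the full length the order was different: miR-183 and miR-182 were identical at 18 of 22 positions (81.8%), miR-183 and miR-96 at 13 of 22 (59.1%), and miR-96 and miR-182 at 12 of 23 (52.2%). Among the RefSeq mature miRNAs, mmu-miR-1271-5p alone had bases 2 to 8 of miR-96, and it was not matched to any miRNA of the array.

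Each miRNA had 2 probes, each printed as 15 spots per array. The brighter probe of each pair, complementary to its miRNA from the 3′ end inward, was used for the level of that miRNA.
mmu-miR-183-5p probe: agtgaattctaccagtgcc
mmu-miR-96-5p probe: agcaaaaatgtgctagtgccaa
mmu-miR-182-5p probe: cggtgtgagttctacc
The miR-183 probe pairs with bases 4 to 22 of its miRNA, and the closest other mature miRNA was mmu-miR-182-5p, with 3 mismatches. The miR-96 probe covers bases 2 to 23, with at least 9 mismatches to any other mature miRNA. The miR-182 probe covers bases 10 to 25 and none of the seed, with at least 5 mismatches to any other mature miRNA. Hybridisation of miR-182 to the miR-183 probe was not tested.

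The arrays were read as 1-colour scans of 56430 mouse miRNA spots each, with no saturated probe. Between 720 and 800 probes were detected per array (16.31% to 18.12% of 4415), where detection meant a signal well above background in over 50% of the spots of a probe. To scale the arrays, each was divided by the 75th percentile of the 623 probes with detection on every array. That percentile was 394.3 to 413 intensity units on the Sham arrays and 434.7 to 481.8 on the UUO arrays. Scaled values under a floor of -4.89 (log2) were set to the floor, and 408 miRNAs detected on at least 4 arrays were fitted with limma. At an adjusted p under 0.05, 67.4% of them were called, 162 higher and 113 lower. All arrays lay on 1 slide, with the Sham arrays in row 1 and the UUO arrays in row 2, so slide row and operation cannot be told apart.

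All 3 miRNAs were higher in the obstructed kidneys, by between 1.83-fold and 2.39-fold on the scaled and floored signal. miR-96-5p was detected on every array, while the probes used for miR-183-5p and miR-182-5p were detected on all 4 UUO arrays but on only 2 of 4 Sham arrays. The scanner software's own call per miRNA, made by another rule, was positive for all 3 on all 8 arrays. In the limma fit 3 of 3 were among the miRNAs called higher, beside 39.7% of all 408, and in 3 of 3 the group ranges lay apart with every UUO array higher, beside 35.0%. Because the miRNAs were chosen with this contrast known, nothing is read from these shares. Since whole kidney was measured, more cells that contain a miRNA and more of it per cell cannot be told apart.

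mmu-miR-183-5p, the first hairpin of the transcript, had log2 scaled signals of -4.66 on Sham 1, -4.89 on Sham 2, -4.89 on Sham 3 and -4.71 on Sham 8. On UUO 1 to 4 it had -3.64, -3.65, -3.83 and -3.70. Sham 2 and Sham 3 were at the floor and not detected, and the lowest UUO array stood 0.84 above the highest Sham array. The Sham mean was -4.79 ± 0.12 (SD, n = 4) and the UUO mean -3.70 ± 0.09 (SD, n = 4), a difference of 1.08 ± 0.07 (SE), or 2.12-fold. Because 2 of 4 Sham values were raised to the floor, this size and its SE depend on the floor. With the floor halved, a setting added after the data were seen, the difference was 1.28 ± 0.16 (SE), or 2.43-fold.

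Before scaling and without a floor, the same miR-183-5p probe gave 16.3, 9.58, 11.0 and 15.8 intensity units on Sham 1, 2, 3 and 8. The UUO arrays 1 to 4 gave 38.8, 34.5, 32.5 and 37.1. The mean intensity was 13.2 ± 3.38 (SD, n = 4) against 35.7 ± 2.78 (SD, n = 4), a ratio of 2.72, and the groups did not overlap. Of its spots, 27 of 60 on the Sham arrays and 58 of 58 on the UUO arrays were well above background. The shorter miR-183-5p probe gave 8.77, 5.63, 7.34 and 7.55 units on the Sham arrays, where 0 of 59 spots passed. On the UUO arrays it gave 21.2, 19.0, 18.0 and 21.6 units, with 59 of 60 spots passing. For a probe detected in 1 group only, the fold is a lower bound, the UUO mean against the lowest detected signal of each Sham array in turn. By this bound the probe was at least 1.36-fold higher in UUO, and against the common floor of -4.89, which is the highest of those limits over the 8 arrays, 1.27-fold.

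mmu-miR-96-5p, the miRNA of the cluster tied to deafness, was the only one of the 3 detected on all 8 arrays. Its log2 scaled signals were -2.19 on Sham 1, -3.10 on Sham 2, -2.94 on Sham 3 and -2.29 on Sham 8. UUO 1 to 4 gave -1.72, -1.67, -1.91 and -1.72. The UUO arrays lay close together and the Sham arrays far apart, so the groups were separated by only 0.28 on the log2 scale, less than the Sham range of 0.91. The Sham mean was -2.63 ± 0.46 (SD, n = 4) and the UUO mean -1.76 ± 0.11 (SD, n = 4). The difference was 0.88 ± 0.21 (SE), or 1.83-fold, with rank 56 of 408.

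In intensity units the miR-96-5p probe read 90.5, 45.9, 52.7 and 84.1 on Sham 1, 2, 3 and 8, and 145.8, 136.9, 122.7 and 145.8 on UUO 1 to 4. All 60 Sham spots and all 58 UUO spots were well above background, so detection did not limit this miRNA. The other miR-96-5p probe, which lacks the pairing to base 2, had log2 scaled signals of -2.61, -3.53, -3.38 and -2.80 in Sham. It had -2.13, -2.03, -2.33 and -2.11 in UUO. Its difference of 0.93 ± 0.20 (SE), or 1.91-fold, was within the SE of that of the brighter probe, and the Sham arrays had the same order.

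mmu-miR-182-5p, the miRNA induced by interleukin-2 in T cells, had log2 scaled signals of -4.37 on Sham 1, -4.89 on Sham 2, -4.89 on Sham 3 and -4.41 on Sham 8. UUO 1 to 4 had -3.31, -3.33, -3.51 and -3.38. As for miR-183-5p, Sham 2 and Sham 3 were at the floor, and the lowest UUO array stood 0.86 above the highest Sham array. The means were -4.64 ± 0.29 (SD, n = 4) and -3.38 ± 0.09 (SD, n = 4), a difference of 1.26 ± 0.14 (SE), or 2.39-fold. This value too depends on the floor, and with the floor halved it was 1.34 ± 0.17 (SE), or 2.53-fold.

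Unscaled, the miR-182-5p probe read 19.9, 11.7, 12.4 and 19.3 units on the Sham arrays and 48.6, 43.1, 40.5 and 46.3 on the UUO arrays, a ratio of means of 2.82. Of its spots, 38 of 59 in Sham and 58 of 58 in UUO were well above background. The shorter miR-182-5p probe was detected on no array. It read 4.41, 2.61, 3.33 and 3.61 units in Sham and 11.9, 11.4, 8.83 and 9.68 in UUO, with 0 of 60 and 12 of 59 spots above background. No fold is given for it, though its UUO values did not overlap its Sham values.

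**Figure D1:**
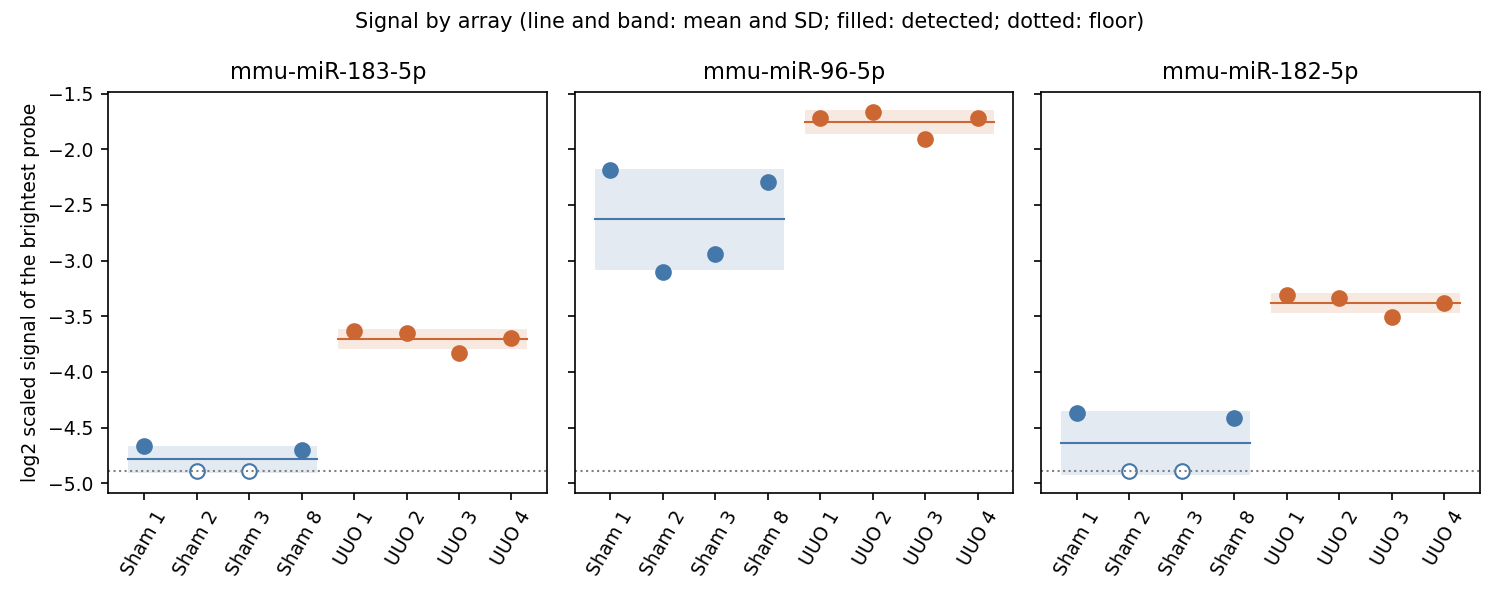
The log2 scaled signal of the brightest probe of each miRNA is plotted for the 4 Sham and 4 UUO arrays, with lines and bands for the group mean and SD, open points for arrays without detection and a dotted line for the floor of -4.89. All UUO points lie above all Sham points in each panel, Sham 2 and Sham 3 are at the floor for miR-183-5p and miR-182-5p, and the Sham arrays of miR-96-5p span 0.91.

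**Figure D2:**
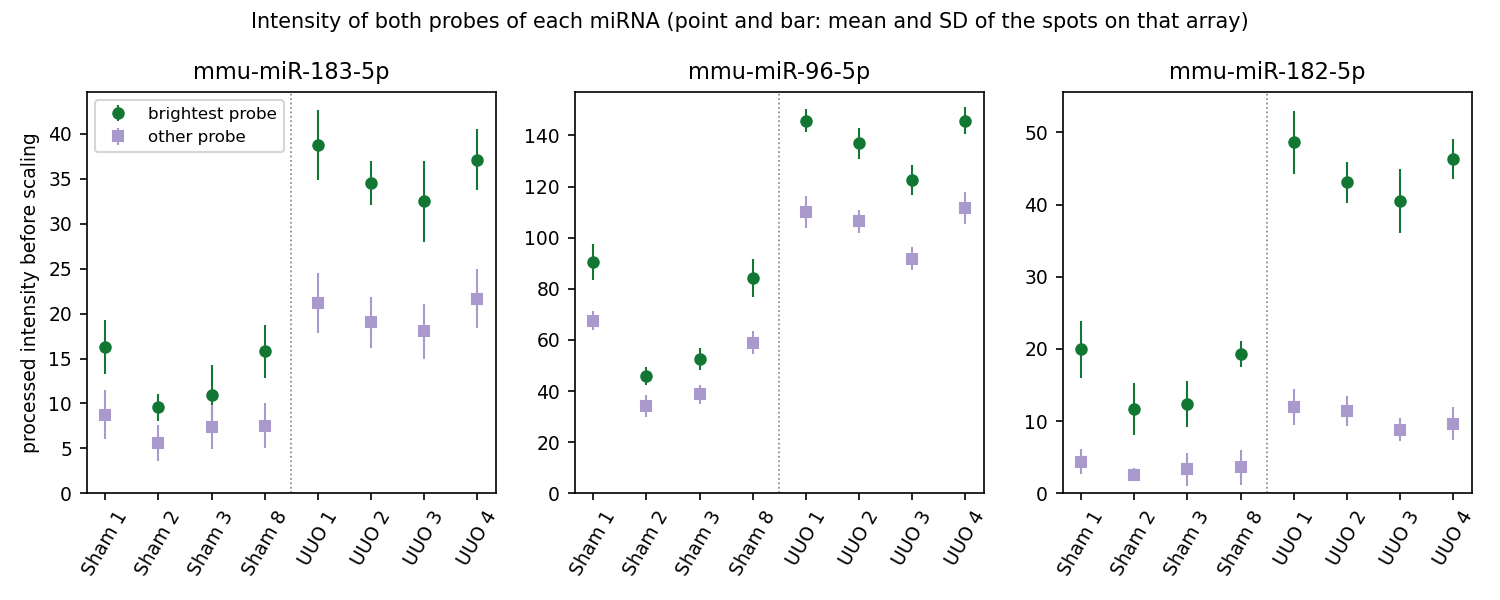
Processed intensity before scaling is shown for both probes of each miRNA on the 8 arrays, each point being the mean and each bar the SD of the spots on that array, on axes that start at 0. In every panel Sham 1 and Sham 8 are the 2 highest Sham arrays and all UUO arrays are higher than these, also for the dim miR-182-5p probe, which was detected on no array.

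Before the floor was set, the order of the Sham arrays was the same for the brightest probe of all 3 miRNAs: Sham 1 highest, then Sham 8, Sham 3 and Sham 2. For miR-183-5p and miR-182-5p the order of Sham 3 and Sham 2 is that of signals without detection, and on the floored scale the 2 arrays are tied. Of the 408 tested miRNAs, 47 (11.5%) had this exact order before the floor. UUO 3 was the lowest UUO array for all 3, as for 83 of 408 (20.3%). The Sham 1 and Sham 8 arrays also had the highest 75th percentiles of their group, 413 and 412 intensity units, against 403.7 on Sham 3 and 394.3 on Sham 2. The part of this array order in the differences was not tested.

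All 3 miRNAs varied more among the Sham than among the UUO arrays. In unscaled intensity the coefficient of variation was 25.7% in Sham and 7.78% in UUO for miR-183-5p, 32.6% and 7.92% for miR-96-5p, and 27.7% and 7.99% for miR-182-5p. The log2 Sham range of miR-96-5p, which no floor touches, was 0.91 and ranked 25 of 408, beside a median of 0.23 over all tested miRNAs. Before the floor the ranges of miR-183-5p and miR-182-5p were both 0.70, and the floor shortened them to 0.23 and 0.52. In UUO the ranges were 0.24, 0.20 and 0.19 for miR-96-5p, miR-182-5p and miR-183-5p, beside a median of 0.24. Spots of 1 probe on 1 array varied with a coefficient of variation of 3.14% to 8.79% for miR-96-5p, and of up to 30.2% for miR-183-5p and 30.7% for miR-182-5p.

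Which Sham arrays enter changed the size of the miR-96-5p difference. When Sham 1 and Sham 8 were left out, a choice made after the values were seen, miR-96-5p was 2.40-fold higher in UUO, and it was 1.40-fold higher when Sham 2 and Sham 3 were left out instead. Without Sham 2 and Sham 3, which leaves Sham arrays with detection only, the log2 difference was 1.01 for miR-182-5p and 0.98 for miR-183-5p. The opposite choice sets both against the floor alone, so its value is not given for them.

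**Figure D3:**
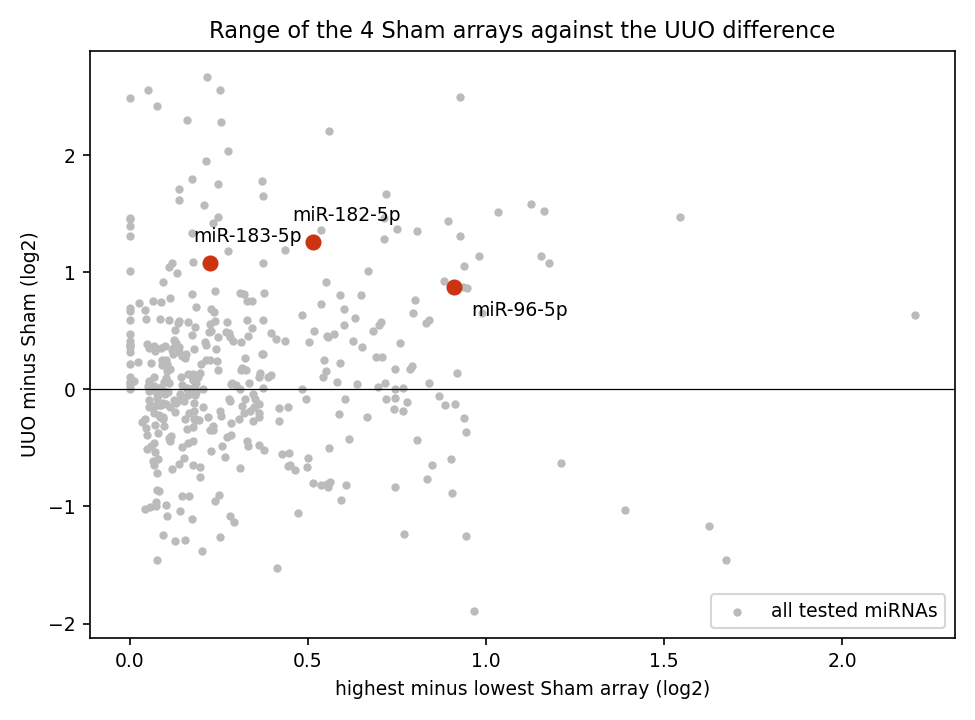
Each point is 1 of the 408 tested miRNAs, placed by the highest minus the lowest Sham array (x axis, log2) and by the UUO minus Sham difference (y axis, log2), with the 3 miRNAs of the cluster in red. miR-96-5p has a Sham range of 0.91 that exceeds its difference of 0.88, whereas miR-183-5p and miR-182-5p are drawn with Sham ranges of 0.23 and 0.52 that the floor shortened from 0.70.

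The level of a miRNA is also given by the scanner software as a total signal over all its probes, and by the authors' deposited ratio table, which was found to be that total signal times 1 factor per array and divided by 1 constant per miRNA. The total signal of miR-183-5p was 2.75 to 4.63 in Sham and 14.5 to 17.1 in UUO. For miR-96-5p it was 23.0 to 44.9 and 61.6 to 74.5, and for miR-182-5p 3.36 to 5.66 and 14.2 to 17.3. These groups did not overlap for any of the 3. In the authors' deposited table the ratios of miR-183-5p ran from 0.431 to 0.638 in Sham and from 1.57 to 1.75 in UUO, a log2 difference of 1.62 in the limma fit (3.08-fold). Those of miR-96-5p ran from 0.562 to 0.964 and from 1.04 to 1.24, and those of miR-182-5p from 0.482 to 0.714 and from 1.40 to 1.63. The log2 differences of the deposited ratios were 0.60 for miR-96-5p (1.52-fold), smaller than on the brightest probe, and 1.34 for miR-182-5p (2.54-fold).

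The size of the difference depended on the treatment of low signals and on the normalization. With a doubled floor miR-183-5p was 1.14-fold higher and miR-182-5p 1.42-fold higher, since all Sham values of both then lay below it, whereas the halved floor gave 2.43-fold and 2.53-fold. Normexp background correction was run with an offset of 50 intensity units added to the signals. With it and quantile normalization, the folds were 1.24 for miR-183-5p, 1.23 for miR-96-5p and 1.29 for miR-182-5p. Quantile normalization without normexp gave 2.06 for miR-183-5p, 1.44 for miR-96-5p and 2.28 for miR-182-5p. All 3 miRNAs were higher in UUO in every setting that gave a value. Without the filter on detection, which brings many undetected miRNAs into the fit, miR-96-5p was no longer among the called miRNAs at the same fold of 1.83.

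**Figure D4:**
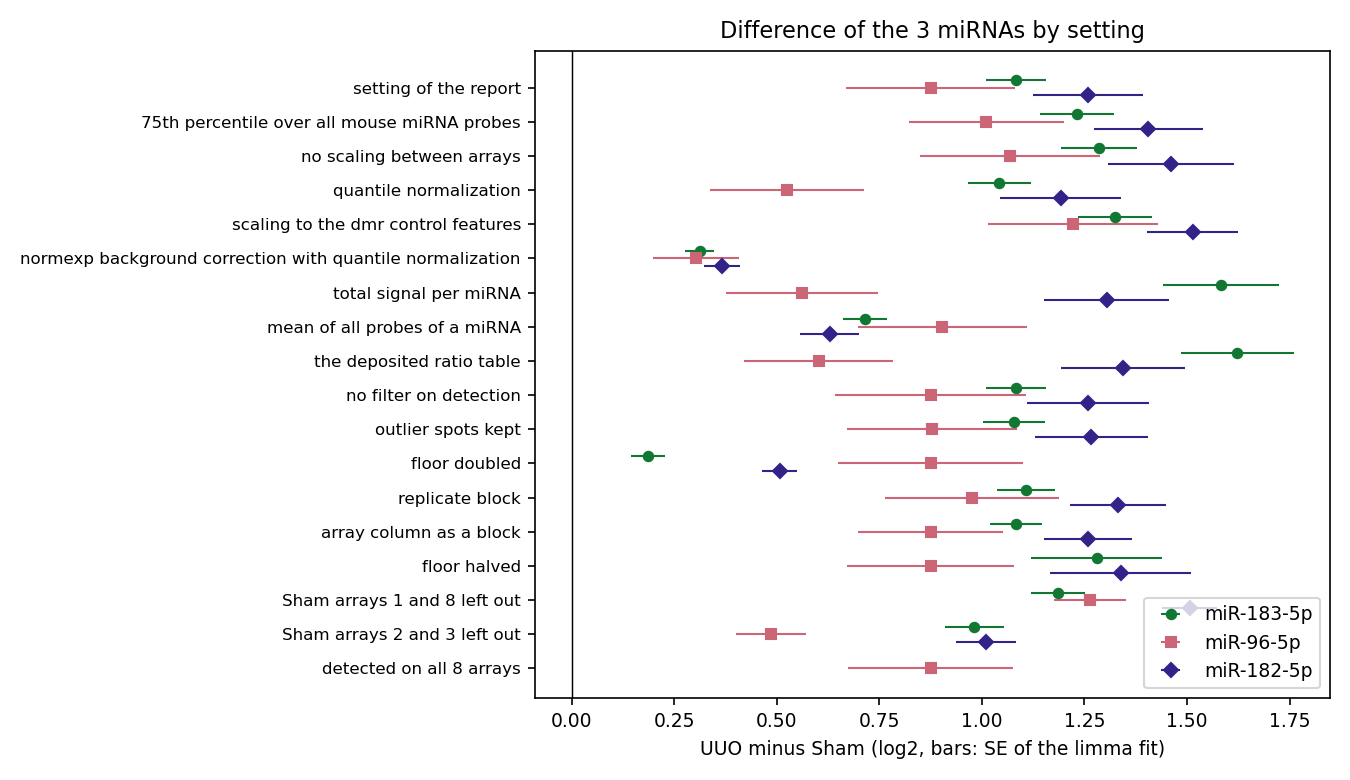
The UUO minus Sham difference (log2, with the SE of the limma fit as bars) is shown for the 3 miRNAs under each processing setting. With Sham 1 and Sham 8 left out, miR-183-5p and miR-182-5p are set against the floor alone. All points lie to the right of 0; the lowest is 0.19 for miR-183-5p with the floor doubled and the highest 1.62 for miR-183-5p from the authors' deposited ratio table.

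The opposite arms of the hairpins, which are usually the less abundant products, gave no detected signal. miR-183-3p with 4 probes, miR-96-3p with 2 and miR-182-3p with 2 were detected on 0 arrays, and their highest intensities were 4.62, 0.463 and 0.288 units. No ratio between arms is given, since probes are not compared in level. The array's own annotation (mm9) lists the 3p probes of each hairpin at higher coordinates than the 5p probes, the reverse of the order in RefSeq for a minus-strand hairpin. Its positions were therefore used only to place a hairpin.

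By RefSeq positions, 4 other hairpins with miRNAs on the array lay within 2 Mb on chromosome 6, those of miR-335, miR-29a, miR-29b-1 and miR-129-1. Of their 6 tested miRNAs 5 were called lower and 0 higher, beside 27.7% of all 408 called lower. The nearest, mmu-miR-335-5p, which is encoded in an intron of Mest, had a difference of -0.01 ± 0.13 (log2, SE; limma adjusted p = 0.977), with overlapping groups. From the miR-29 pair, whose members repress collagen messenger RNAs, mmu-miR-29a-3p fell by 0.53 ± 0.07 (limma adjusted p = 0.000187), mmu-miR-29a-5p by 0.26 ± 0.06 (limma adjusted p = 0.00503) and mmu-miR-29b-1-5p by 0.44 ± 0.08 (limma adjusted p = 0.00139). mmu-miR-29b-3p, which fell by 0.68 ± 0.07 (limma adjusted p = 3.93e-05), is also made from a copy on chromosome 1. mmu-miR-129-1-3p fell by 0.39 ± 0.06 (limma adjusted p = 0.000853) and was at the floor on all UUO arrays. It was detected on 4 Sham arrays and 1 UUO array, so this size and its SE depend on the floor. With every UUO value at the floor, it could not have been called higher. In each of the 5 called lower every UUO array was below every Sham array. With the array's dmr control features as the reference, mmu-miR-29a-3p (-0.18), mmu-miR-29b-1-5p (-0.09), mmu-miR-129-1-3p (-0.18) and mmu-miR-29a-5p, then at 0.09, did not pass. mmu-miR-335-5p was then higher by 0.34 (limma adjusted p = 0.00344), below the median of 0.40 over all miRNAs in that setting. There 236 miRNAs were called higher and 49 lower.

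For each miRNA the tested miRNAs with the most similar profile were found by the root mean square difference of their log2 signals over the 8 arrays, each centred on its own mean. For miR-183-5p these were let-7i-5p (0.046), miR-224-5p (0.079) and miR-350-3p (0.086), with miR-182-5p in place 9 (0.135) and miR-96-5p in place 35 (0.234). For miR-182-5p they were miR-7118-5p (0.110), miR-183-5p (0.135) and let-7i-5p (0.151), with miR-96-5p in place 15 (0.222). For miR-96-5p they were miR-148a-3p (0.187), miR-34b-5p (0.201) and miR-3102-5p.2-5p (0.208), with miR-182-5p in place 5 (0.222) and miR-183-5p in place 8 (0.234). On Sham 2 and Sham 3 the profiles of miR-183-5p and miR-182-5p are the floor, which sets part of these distances. The profile of miR-224-5p is the floor on Sham 2, 3 and 8, and it was detected on 1 Sham array. The distances also hold the difference between UUO and Sham on which the 3 miRNAs were selected.

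Of the lists set beside the cluster, the leukocyte and fibroblast miRNAs rose and most kidney tubule miRNAs fell, whichever scaling was used. The lists were chosen with earlier results of these data known. Their counts and p-values, here and in the next paragraphs, are therefore a description and not an independent test. All 6 leukocyte miRNAs rose (median log2 difference 1.87, beside 0.06 over all 408, of which 39.7% were called higher; 5 of 6 passed with total signals), among them the myeloid miR-223-3p (4.92-fold, limma adjusted p = 3.69e-08) and the activation-induced miR-155-5p (2.78-fold, limma adjusted p = 1.97e-07). The mean log2 level of this list ran from -2.17 to -1.98 over the Sham arrays and from -0.45 to -0.30 over the UUO arrays. All 5 fibroblast miRNAs rose (median 1.80), among them miR-214-3p (5.35-fold, limma adjusted p = 3.07e-08). Of these, miR-214-5p was detected on 0 Sham and 4 UUO arrays and was at the floor in Sham. It entered the fit through UUO alone, so it could not have been called lower. Where detection on all 8 arrays was required, 4 of 4 fibroblast miRNAs were called higher. The mean level of the 5 fibroblast miRNAs ran from -1.43 to -1.32 in Sham and from 0.37 to 0.61 in UUO. The part of leukocytes and fibroblasts in the cluster's difference was not tested.

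In the kidney tubule list 7 of 8 tested miRNAs fell (median -0.92), beside 27.7% of all 408 called lower, for example miR-192-5p (2.20-fold lower, limma adjusted p = 4.38e-05) and miR-30e-5p (2.36-fold lower, limma adjusted p = 1.18e-06). The remaining one, miR-204-5p, had a difference of 0.11 that did not pass, and its sign changed with the scaling. The mean level of the list was 2.406 to 2.480 in Sham and 1.496 to 1.768 in UUO. Of the miR-200 family, which holds epithelial identity by repressing ZEB1, 5 of 7 tested arms fell (median -0.32). But without scaling 1 fell and 2 rose (median -0.13), beside a median of 0.26 and 212 higher and 77 lower calls over all miRNAs. With scaling to the control features 0 fell and 2 rose (median 0.03), beside a median of 0.40 and 236 higher and 49 lower calls. The arms of the miR-200a, miR-200b and miR-429 hairpins were those that fell in the setting of the report. miR-200c-3p had a difference of 0.25 and miR-141-3p of 0.16, and neither passed. The mean level of the family was 0.18 to 0.42 in Sham and 0.03 to 0.20 in UUO, so the groups overlapped.

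Other lists gave counts that shifted with the scaling. In the setting of the report they are to be read beside the 39.7% of all 408 miRNAs called higher and the 27.7% called lower. Calls over all miRNAs shifted too, to 236 higher and 49 lower with control-feature scaling and 109 and 217 with total signals. They were 212 and 77 without scaling, 123 and 160 with quantile normalization and 129 and 158 with normexp. Among neural and sensory miRNAs, 0 of 4 tested passed (median -0.05), with 2 higher under control-feature scaling and 3 lower with total signals, and miR-124-3p and miR-129-5p were detected on no array. Of 3 red blood cell miRNAs 2 fell, miR-451a (1.78-fold lower, limma adjusted p = 0.00592) and miR-144-3p (1.76-fold lower, limma adjusted p = 0.0147), both with overlapping groups. The list's median of -0.81 kept its sign in every scaling, and 1 of 3 fell with control-feature scaling. Of 2 smooth muscle miRNAs 1 was called higher, but 2 with control-feature scaling, and with quantile normalization or total signals 0 were higher and 1 lower. Of 2 endothelial miRNAs 1 was called lower, but 0 without scaling and 2 with total signals, and 1 was called higher with quantile normalization, normexp or control-feature scaling. Of the other miRNAs reported to target Foxo1, 3 of 5 tested rose, miR-223-3p, miR-139-5p (1.32-fold, limma adjusted p = 0.000418) and miR-27a-3p (1.21-fold, limma adjusted p = 0.0183), whereas 1 of 5 rose and 1 fell with total signals. miR-27b-3p and miR-9-5p had differences of -0.11 and -0.14 that did not pass.

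**Figure D5:**
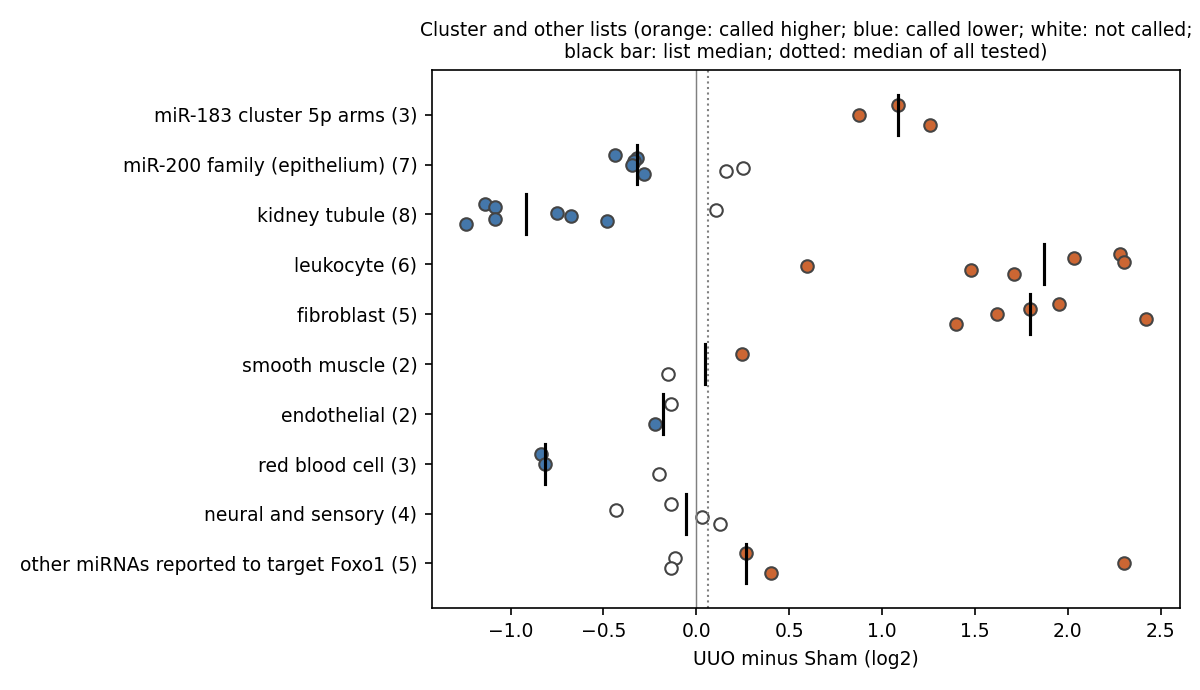
Each point is a tested miRNA placed by its UUO minus Sham difference (log2), by list, with the number tested in brackets; orange points were called higher, blue points lower and white points not called at an adjusted p under 0.05, black bars are list medians and the dotted line is the median of all 408 (0.06). The cluster lies between 0.88 and 1.26, below the list medians of the leukocyte (1.87) and fibroblast (1.80) miRNAs and above those of the other lists.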

How the data were processed

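Small RNA of 8 kidney samples was labelled with Cy3 and hybridised to Agilent mouse miRNA arrays, per the labels' protocols. The deposited scanner files hold processed intensity per spot, made with Agilent Feature Extraction 10.7.3.1, per the file headers. The deposited series table holds linear ratios, which matched the scanner total signal times 1 factor per array, divided by a constant per miRNA whose origin stays unknown. The median ratio was 1.107 on Sham 1, 1.26 on Sham 2, 1.28 on Sham 3 and 1.11 on Sham 8. On UUO 1 to 4 it was 0.8086, 0.9034, 0.8669 and 0.7663.

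From the deposited intensities, outlier spots were dropped (2.64% to 2.95%), spots averaged per probe, scaled by the 75th percentile over the 623 probes detected on 8 arrays, floored and log2 transformed. The brightest probe stood for each miRNA. miRNAs detected on at least 4 arrays were fitted with limma 3.58.1 in R 4.3.3 (lmFit, eBayes, Benjamini-Hochberg), a step tested on simulated data. The number of arrays limits the precision. Genes named are the 3 miRNAs, the listed miRNAs, those with a shared seed, those within 2 Mb, and the 3 nearest profiles. The members and lists were chosen with earlier results of these data known. Sequences were matched by name to RefSeq (GRCm38.p6): 1608 of 1881 array miRNAs matched. Sham and UUO share the numbers 1, 2 and 3, but the deviations of same-numbered arrays did not go together, so no pairing was used.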

Additional observations from a re-analysis of the deposited data

How the results depend on the processing

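The 3 differences kept their direction in every alternative that gave a value: 0.19 to 1.62 (log2) for miR-183-5p, 0.30 to 1.26 for miR-96-5p and 0.37 to 1.51 for miR-182-5p. miR-96-5p was not among the called miRNAs without a filter on detection. Its difference was the same there (0.88), with an SE of 0.23 against 0.21 in the report. The p-values were then adjusted over all 1881 miRNAs instead of 408. The part of each in the lost call was not tested. Leaving out 1 array gave 1.05 to 1.13, 0.72 to 1.02 and 1.18 to 1.35. miR-183-5p and miR-182-5p have no value where detection on all 8 arrays is required. The count of called miRNAs was 209 to 326 (275 in the report), and 256 to 283 without 1 array. Higher against lower calls were 162 and 113, but 194 and 84 with the percentile over all probes, 212 and 77 unscaled, 123 and 160 with quantile normalization, 236 and 49 scaled to control features, 129 and 158 with normexp, 109 and 217 from total signals and 118 and 207 from the deposited ratios. The median of all miRNAs, 0.06, was then 0.19, 0.26, -0.04, 0.40, -0.02, -0.23 and -0.20. Same-numbered arrays had correlations of deviations of 0.00, 0.12 and -0.30; with the replicate block the differences were 1.11, 0.98 and 1.33 and 226 miRNAs were called. Dim probes limit miR-183-5p and miR-182-5p, whose probes were not detected on Sham 2 and Sham 3.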
